A study of Mus musculus with 7 samples.

Results

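Matrix metalloproteinases (MMPs), ADAMTS proteases, ADAMTS-like proteins and tissue inhibitors of metalloproteinases (TIMPs) were examined in Nkx3.1-/- mouse prostates. The members are all genes measured by a probe set naming a single gene whose symbol is Mmp, Adamts, Adamtsl or Timp with a number, and there were 46 of them among 18938 genes: 21 MMPs, 17 ADAMTS proteases, 4 ADAMTS-like genes and 4 TIMPs. The 4 NAC arrays (replicates 1 to 4) came from mice that drank 5 mM N-acetylcysteine (NAC), an antioxidant and source of cysteine, for 13 weeks from weaning. The 3 vehicle arrays (replicates 1, 2 and 4) came from mice on plain drinking water, and every array holds RNA of 1 mouse. All mice were homozygous null for Nkx3.1, of a recombinant inbred B6/129 background and 16 weeks old. No Nkx3.1+/+ sample was analysed here, and littermates were split between NAC and vehicle cages, so that cage and treatment cannot be told apart. The methods name the anterior prostate, whereas a tissue label names the whole prostate.

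MMPs are zinc endopeptidases that are made as inactive precursors and cleave collagens, gelatin, proteoglycans and other proteins of the extracellular matrix. In the precursor a cysteine of the propeptide holds the catalytic zinc, the so-called cysteine switch. ADAMTS proteases carry thrombospondin repeats and cleave proteoglycans such as versican, procollagen or von Willebrand factor, whereas ADAMTS-like proteins share the repeats but have no protease domain. TIMPs block MMPs, and TIMP3 also blocks several ADAMTS proteases. In glands these genes are divided between epithelium, which makes matrilysin (MMP7), stroma, which makes MMP2 and the TIMPs, and leukocytes, which make MMP8, MMP9 and MMP12.

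All values are log2 expression per probe set, so a difference of 1 is a doubling, and levels of different genes are not set against each other. The deposited values were compared between NAC and vehicle with limma, with adjusted p-values by Benjamini-Hochberg over all genes. Array medians were between 7.16 and 7.20. NAC replicate 3 stood apart: the mean of 6 lung markers was 8.06 on it and at most 5.56 on any other array, and the mean of 6 adipocyte markers was 7.48 on it and at most 6.06 elsewhere. The mean of 7 skeletal muscle markers was 7.999 on it and at most 7.09 elsewhere. Counts of members by direction or p, and of the lists of related genes, are therefore given with and without this array. The plot of log2 fold changes shows both values for every member. Counts of cell markers are with all 7 arrays unless stated. Defining prostate secretory transcripts were present on all arrays: Pbsn, the androgen-regulated probasin, was between 12.65 and 12.95 with NAC and between 12.63 and 12.75 with vehicle. The mean of 4 secretory markers was 12.15 to 12.50 with NAC and 12.44 to 12.66 with vehicle, and Pbsn was the 1 of the 4 that was higher with NAC on average. Spink1, a secreted trypsin inhibitor, had the lowest log2 fold change of them (-1.03, standard error 0.42, limma adjusted p 0.827), and it was lowest on NAC replicates 1 and 3 (9.97 and 10.55, against 11.47 and 11.44 on the other NAC arrays and 11.43 to 12.36 with vehicle). In bulk tissue, fewer cells of a type and less RNA per cell cannot be told apart.

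A block of 10 MMP genes lies on chromosome 9 (GRCm38.p6, chr9:7272514-7699585), in the order Mmp13, Mmp12, Mmp1b, Mmp3, Mmp1a, Mmp10, Mmp8, Mmp27, Mmp20 and Mmp7. Start-site windows of RefSeq (GRCm38.p6, 250 bases before to 50 after a start site) were matched for 32 of the 46 members. Mmp2, Mmp9 and Adamts4 had no window, so they were not searched for motifs. The AP-1 motif TGANTCA was found in windows of 8 members, all within this block, and in 0 of the 22 members outside the block with a window. Of all 32851 windows, 7.81% hold this motif and 13.6% hold the TATA motif TATAAA on either strand. Among the 35 windows of members the shares were 22.9% and 34.3%. The share of all windows with both motifs was not counted. In each of the 8 genes, TATAAA follows the AP-1 motif by 12 to 41 bases. Its position from the annotated start site differs, from -58 (Mmp20) to 5 (Mmp12). The open base of TGANTCA is A in Mmp20 and C or G in the other genes. These stretches are shown because 8 genes of the block share this pair of motifs, while only Mmp7 among them had groups that did not overlap. Capitals mark the AP-1 and TATA motifs, which overlap in none of them, and each stretch runs from 5 bases before the first to 5 bases after the second:
Mmp13 (chr9:7272474-7272508, plus strand): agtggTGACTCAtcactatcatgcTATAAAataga
Mmp12 (chr9:7347325-7347388, plus strand): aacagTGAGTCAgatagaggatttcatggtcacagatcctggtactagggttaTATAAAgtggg
Mmp1b (chr9:7388065-7388124, minus strand): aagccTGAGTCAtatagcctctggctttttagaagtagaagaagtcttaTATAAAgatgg
Mmp3 (chr9:7445771-7445825, plus strand): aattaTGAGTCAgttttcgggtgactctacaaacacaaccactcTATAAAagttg
Mmp1a (chr9:7464063-7464123, plus strand): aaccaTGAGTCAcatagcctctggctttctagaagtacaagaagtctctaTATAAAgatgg
Mmp10 (chr9:7502274-7502323, plus strand): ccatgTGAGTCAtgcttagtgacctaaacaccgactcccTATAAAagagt
Mmp20 (chr9:7628131-7628183, plus strand): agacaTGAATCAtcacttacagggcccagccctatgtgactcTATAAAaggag
Mmp7 (chr9:7692022-7692074, plus strand): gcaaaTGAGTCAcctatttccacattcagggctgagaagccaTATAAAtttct

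Of the genes in this block, Mmp7 had NAC arrays wholly above vehicle arrays. Counted from the annotated start site, its AP-1 motif begins at position -63 and its nearer TATAAA at -26, and its whole window is printed because Mmp7 had the smallest p of all members:
Mmp7 (chr9:7691840-7692139, plus strand): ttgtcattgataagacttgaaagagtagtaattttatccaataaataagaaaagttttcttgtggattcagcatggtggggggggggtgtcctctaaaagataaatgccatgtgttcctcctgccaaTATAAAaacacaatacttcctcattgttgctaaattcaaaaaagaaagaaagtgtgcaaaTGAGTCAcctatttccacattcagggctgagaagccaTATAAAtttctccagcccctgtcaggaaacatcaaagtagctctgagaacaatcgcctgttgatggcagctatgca

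No member passed the test. With limma, 0 of 46 members had an adjusted p under 0.05 (0% of all genes), and the smallest adjusted p was 0.827 with all 7 arrays and 0.854 without NAC replicate 3. An unadjusted p under 0.05 was found in 3 members (6.52%) and in 4.41% of all genes. All 3 were higher with NAC, against 1.89% of all genes, and 0 were lower, against 2.53% of all genes. They were Mmp7, Mmp2 and Mmp9. The same 3 were the members whose NAC arrays all lay above all vehicle arrays (6.52%, against 1.29% of all genes), and 0 members had NAC arrays wholly below (2.18% of all genes). Without NAC replicate 3, Mmp7, Mmp2 and Mmp9 were again the 3 members with an unadjusted p under 0.05 (3.36% of all genes), again all higher (1.51% of all genes) and 0 lower (1.85%), and the 3 with groups apart in that direction (2.17% of all genes). Without NAC replicate 4 it was again these 3 genes. Without vehicle replicate 2 or vehicle replicate 4 none of the 3 had an unadjusted p under 0.05, with log2 fold changes of 0.46 and 0.40 for Mmp7, 0.18 and 0.23 for Mmp2 and 0.18 and 0.14 for Mmp9, and other members did (Adamts4, Adamts9 and Mmp19 without vehicle replicate 2, Mmp27 without vehicle replicate 4). Mmp7 alone was left without vehicle replicate 1 or without NAC replicate 1, and it was joined by Adamtsl1 and Mmp23 without NAC replicate 2.

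The log2 fold change was above 0 in 34 of the 46 members (73.9%) and in 49.8% of all genes, with medians of 0.03 for the members and 0.00 for all genes. By family, it was above 0 in 17 of 21 MMPs (median 0.08), 14 of 17 ADAMTS proteases (median 0.03), 2 of 4 ADAMTS-like genes and 1 of 4 TIMPs (median -0.08). Without NAC replicate 3 it was above 0 in 30 members (65.2%), against 49.4% of all genes, with a median of 0.02. By family, the log2 fold change was then above 0 in 16 MMPs, 12 ADAMTS proteases, 1 ADAMTS-like gene and 1 TIMP. When the arrays were quantile normalized again it was above 0 in 28 members. For 19 members (41.3%, against 40% of all genes) at least 3 arrays held an identical value, so small differences of such genes carry little information.

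**Figure D1:**
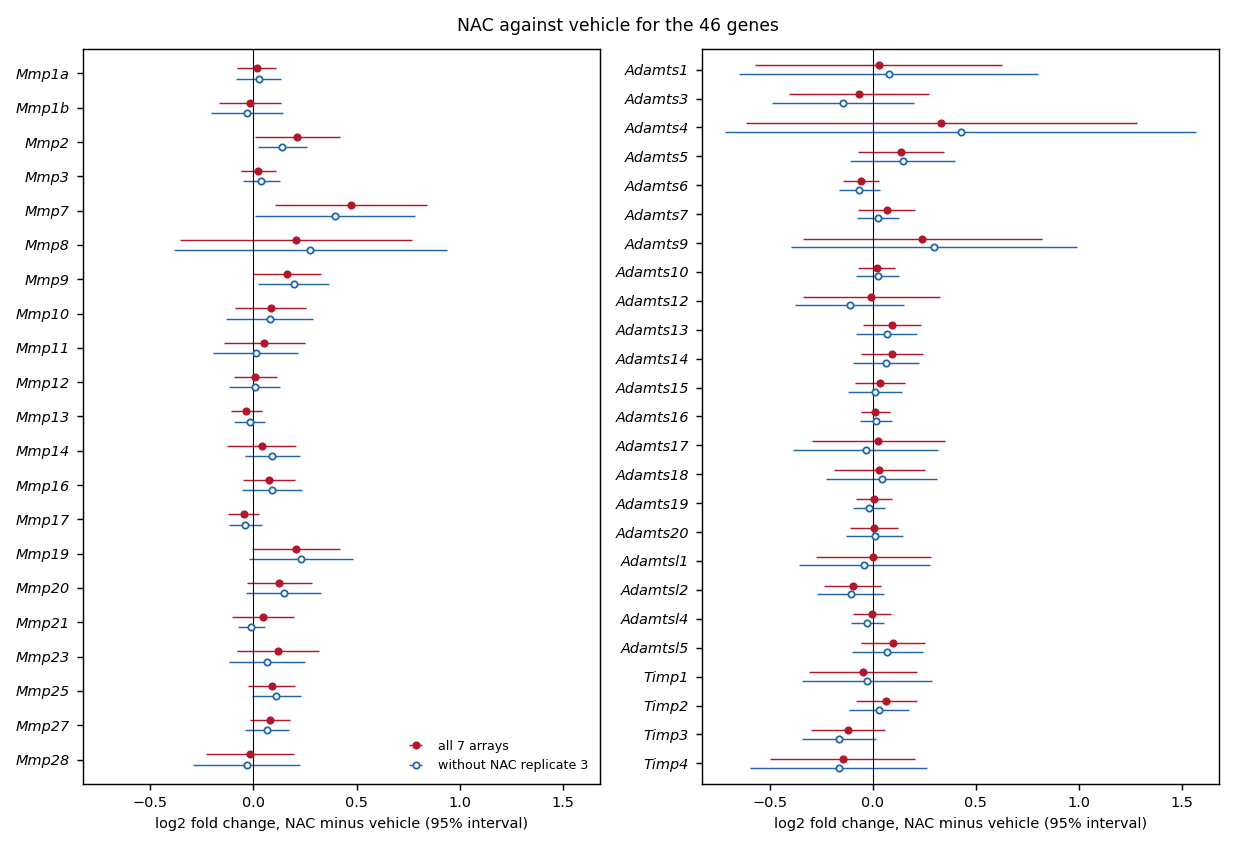
Log2 fold change (NAC minus vehicle, x axis) of each of the 46 genes (y axis), with all 7 arrays (filled, red) and without NAC replicate 3 (open, blue); points are limma estimates and lines 95% intervals, not adjusted for the number of genes. With all arrays Mmp7 (0.47) is the farthest from 0, and without NAC replicate 3 Adamts4 is (0.43); Adamts4, Adamts9 and Adamts1 have the widest intervals.

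Mmp7 is matrilysin, a small MMP without the hemopexin domain that is made by glandular epithelium. It was at 12.02, 11.50, 12.03 and 11.62 on NAC replicates 1 to 4 and at 11.48, 11.30 and 11.17 on vehicle replicates 1, 2 and 4. All NAC arrays were above all vehicle arrays, but NAC replicate 2 exceeded vehicle replicate 1 by little, while NAC replicates 1 and 3 stood well above the rest. The means were 11.79 ± 0.27 (SD, n = 4) with NAC and 11.32 ± 0.16 (SD, n = 3) with vehicle. This is a log2 fold change of 0.47 (standard error 0.15, 95% interval 0.11 to 0.84), or 1.39-fold, and with limma the unadjusted p was 0.019 and the adjusted p 0.827. Without NAC replicate 3 the log2 fold change was 0.39 (95% interval 0.01 to 0.78).

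NAC replicates 1 and 3, the arrays with the highest Mmp7, also stood apart in other transcripts. The mean of 6 seminal vesicle markers was lowest on them (8.95 and 9.65, with 0 of the 6 higher with NAC on average), against 10.16 and 10.51 on the other NAC arrays and 10.28 to 10.59 with vehicle. Markers of macrophages averaged highest on them (8.53 and 8.28 over 7 genes, all 7 higher with NAC on average), against 8.10 and 8.07 on the other NAC arrays and 7.95 to 8.07 with vehicle. Among the macrophage markers, Mrc1 was lower on NAC replicate 1 (7.43) than on any other NAC array. Basal cell markers averaged 8.87 and 8.70 on NAC replicates 1 and 3, against 8.25 and 8.38 on the other NAC arrays. With vehicle they averaged 8.27 to 8.65, and 3 of the 4 were higher with NAC on average. Krt5 and Krt15 were highest on NAC replicates 1 and 3, but Trp63 was highest on vehicle replicate 1 (9.04). Krt14 on NAC replicate 3 (7.66) lay within the vehicle range (7.61 to 7.68). Spink1 was lowest on NAC replicates 1 and 3, as given above. Luminal epithelial markers averaged 11.89 to 12.00 with NAC and 11.93 to 11.98 with vehicle. The part of these cells in the Mmp7 difference was not tested.

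Mmp2 encodes gelatinase A, a product of stromal fibroblasts that degrades gelatin and type IV collagen. It was at 9.84, 9.80, 10.08 and 9.71 on NAC replicates 1 to 4 and at 9.67, 9.59 and 9.68 on vehicle replicates 1, 2 and 4. The groups did not overlap, with NAC replicate 4 closest to the vehicle arrays and NAC replicate 3 highest. Its log2 fold change was 0.21 (standard error 0.09, 95% interval 0.01 to 0.42), with an unadjusted p of 0.043 and an adjusted p of 0.827 by limma. Without NAC replicate 3 it was 0.14 (standard error 0.05), a ratio of 1.10, and the groups remained apart. The mean of 8 fibroblast and stroma markers was 8.80, 8.64, 8.91 and 8.74 on NAC replicates 1 to 4 and 8.70, 8.72 and 8.81 on vehicle replicates 1, 2 and 4, with 5 of the 8 higher with NAC on average. Without NAC replicate 3, Col1a1, Col3a1 and Dcn were still higher with NAC (log2 fold changes of 0.09, 0.07 and 0.01). The other markers were then lower, from -0.01 (Col1a2) to -0.12 (Pdgfra). In the mean of the markers the groups overlapped, and NAC replicate 3 was highest here as for Mmp2. It was also highest in the mean of 5 endothelial markers (7.59, against 7.26 to 7.37 on the other NAC arrays and 7.30 to 7.36 with vehicle), besides the lung, adipocyte and skeletal muscle markers given above. The part of these cells in the Mmp2 difference was not tested.

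Mmp9 encodes gelatinase B, which neutrophils and macrophages release. It was at 6.63, 6.64, 6.58 and 6.85 on NAC replicates 1 to 4 and at 6.52, 6.54 and 6.47 on vehicle replicates 1, 2 and 4. Every NAC array was above every vehicle array, and NAC replicate 4 was the highest. The log2 fold change was 0.16 (standard error 0.07), with an unadjusted p of 0.050 and an adjusted p of 0.827 by limma. It was 0.20 when NAC replicate 3 was left out and 0.10 when NAC replicate 4 was. The mean of 6 neutrophil markers was 5.40 to 5.77 with NAC and 5.27 to 5.58 with vehicle, with 5 of the 6 higher with NAC on average. Among NAC arrays it was highest on replicate 2, whereas Mmp9 was highest on replicate 4. The mean of 7 macrophage markers was 8.53, 8.10, 8.28 and 8.07 on NAC replicates 1 to 4 and 7.95 to 8.07 with vehicle. Among NAC arrays this mean was lowest on replicate 4, where Mmp9 was highest. The part of neutrophils and macrophages in the Mmp9 difference was not tested.

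**Figure D2:**
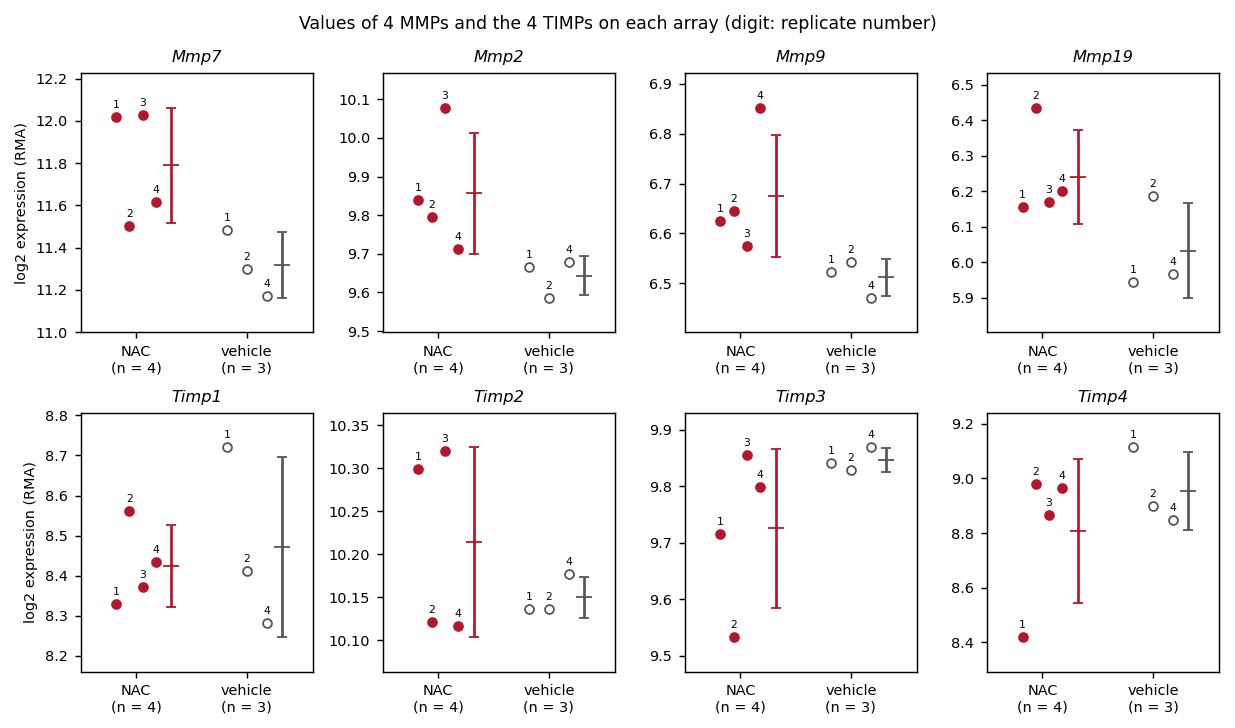
Log2 expression (y axis, RMA values, a separate scale for each gene) of Mmp7, Mmp2, Mmp9, Mmp19 and the 4 TIMPs on NAC (filled, red, n = 4) and vehicle (open, grey, n = 3) arrays; digits are replicate numbers and bars mean and SD. The groups are apart for Mmp7, Mmp2 and Mmp9 and overlap for the other 5 genes.

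TIMPs were measured by 4 probe sets, and none had groups apart with all arrays. Timp1, the inhibitor that binds the precursor of MMP9, was at 8.33, 8.56, 8.37 and 8.43 on NAC replicates 1 to 4 and at 8.72, 8.41 and 8.28 on vehicle replicates 1, 2 and 4. Its 2 groups overlapped, and its log2 fold change of -0.05 (95% interval -0.31 to 0.21) was 0.08 without vehicle replicate 1. Timp2, which takes part in the activation of MMP2 by MMP14 at the cell surface, was at 10.30, 10.12, 10.32 and 10.12 on NAC replicates 1 to 4 and at 10.14, 10.14 and 10.18 on vehicle replicates 1, 2 and 4. NAC replicates 1 and 3 were above and NAC replicates 2 and 4 below every vehicle array, and the log2 fold change was 0.06 (95% interval -0.08 to 0.21).

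Timp3, which stays bound to the matrix, was at 9.72, 9.53, 9.86 and 9.80 on NAC replicates 1 to 4 and at 9.84, 9.83 and 9.87 on vehicle replicates 1, 2 and 4. NAC replicate 3 was the only NAC array within the vehicle range, and without it Timp3 was the 1 member whose NAC arrays lay wholly below vehicle (2.17%, against 3.16% of all genes). Its log2 fold change was -0.12 (95% interval -0.30 to 0.06) with all arrays and -0.16 (95% interval -0.34 to 0.01) without NAC replicate 3. It was -0.06 without NAC replicate 2. Timp4 was at 8.42, 8.98, 8.87 and 8.97 on NAC replicates 1 to 4 and at 9.12, 8.90 and 8.85 on vehicle replicates 1, 2 and 4. NAC replicate 1 was far below the others, and the log2 fold change of -0.15 (95% interval -0.50 to 0.21) was -0.02 without that array.

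The remaining genes of the chromosome 9 block differed less. Apart from Mmp7 and Mmp8, the log2 fold changes of its 8 other genes were between -0.03 (Mmp13, collagenase-3) and 0.13 (Mmp20, the enamel protease), and 5 of the 10 genes held 1 value on at least 3 arrays. Mmp1a and Mmp1b are close copies, so that their probes may share signal. Mmp12, the elastase of macrophages, had a log2 fold change of 0.01, and its value on NAC replicate 1, where macrophage markers averaged highest, was the lowest of the 7 (5.98). Mmp8, the collagenase of neutrophils, was at 4.52, 5.49, 4.61 and 4.64 on NAC replicates 1 to 4 and at 4.64, 4.71 and 4.47 on vehicle replicates 1, 2 and 4. Only NAC replicate 2 was high, and that array also had the highest mean of the neutrophil markers (5.77). Mmp8 was among the dimmest 40% of genes, and signal over background cannot be seen from these values. The log2 fold change of Mmp8 was 0.21 (95% interval -0.36 to 0.77), and it was -0.019 without NAC replicate 2.

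Membrane-type MMPs sit in or on the plasma membrane. The log2 fold changes of the 4 measured here (Mmp14, Mmp16, Mmp17 and Mmp25) were between -0.05 and 0.09, and none had groups apart. Mmp14, the activator of MMP2, was at 7.90, 7.99, 7.75 and 7.98 on NAC replicates 1 to 4 and at 7.90, 7.92 and 7.77 on vehicle replicates 1, 2 and 4. On NAC replicate 3 it was the lowest of all arrays, although Mmp2 was highest there. Among stromelysins, which cleave many matrix proteins, Mmp3, Mmp10 and Mmp11 had log2 fold changes between 0.02 and 0.08.

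Mmp19, Mmp20, Mmp21, Mmp23, Mmp27 and Mmp28 had log2 fold changes between -0.02 and 0.21. Mmp19 was the farthest from 0, at 6.16, 6.44, 6.17 and 6.20 on NAC replicates 1 to 4 and 5.94, 6.19 and 5.97 on vehicle replicates 1, 2 and 4. The replicates numbered 2 were the highest of each group, and vehicle replicate 2 reached into the NAC range. Its log2 fold change was 0.21 (standard error 0.09), or 0.14 without NAC replicate 2, and by limma the unadjusted p was 0.056 and the adjusted p 0.827.

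Proteoglycan-cleaving ADAMTS genes (Adamts1, Adamts4, Adamts5, Adamts9, Adamts15 and Adamts20) had log2 fold changes between 0.01 and 0.33, and none of the 6 had groups apart. The widest spread among mice of the same treatment was seen in Adamts4, Adamts9 and Adamts1. Adamts4, an aggrecanase that also cleaves versican, was at 6.52, 7.46, 6.69 and 7.20 on NAC replicates 1 to 4 and at 6.13, 7.56 and 6.21 on vehicle replicates 1, 2 and 4. Adamts9, which cleaves the same proteoglycans, was at 7.36, 7.68, 7.36 and 7.74 on NAC replicates 1 to 4 and at 7.22, 7.86 and 6.80 on vehicle replicates 1, 2 and 4. Adamts1, a protease of versican that many tissues induce on injury, was at 6.96, 7.45, 7.19 and 7.72 on NAC replicates 1 to 4 and at 7.09, 7.82 and 6.99 on vehicle replicates 1, 2 and 4. In all 3 genes vehicle replicate 2, NAC replicate 2 and NAC replicate 4 were the highest arrays, and vehicle replicate 2 was the highest of all.

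The log2 fold changes of these genes had wide intervals: 0.33 for Adamts4 (95% interval -0.62 to 1.28), 0.24 for Adamts9 (95% interval -0.34 to 0.82) and 0.03 for Adamts1 (95% interval -0.57 to 0.63). Single arrays moved them: without vehicle replicate 2 they were 0.80, 0.52 and 0.29. Without vehicle replicate 1 Adamts4 was at 0.08, and without vehicle replicate 4 Adamts9 and Adamts1 were at -0.0041 and -0.12. In the start-site windows, Adamts1 held TATAAA and 3 copies of the GC box GGGCGG, and Adamts9 held 1 GC box (35.7% of all windows hold one, on either strand). Neither held TGANTCA, and Adamts4 had no window.

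Some other transcripts were high on the same arrays. The chemokine Ccl2, which recruits monocytes and was chosen after its values were seen, was at 6.33, 8.33, 6.68 and 7.90 on NAC replicates 1 to 4 and at 6.48, 7.88 and 6.47 on vehicle replicates 1, 2 and 4. Junb, an AP-1 subunit likewise chosen after its values were seen, was at 8.04, 8.48, 8.06 and 8.32 with NAC and 8.08, 8.46 and 7.89 with vehicle. The early-response genes Fos and Egr1, looked up with Junb, had another order. Fos, also an AP-1 subunit, was highest on NAC replicate 2 (7.11) and vehicle replicate 2 (7.04), but NAC replicate 4 and vehicle replicate 1 were level at 6.74. Egr1, a zinc finger factor, was at 8.53, 8.97, 8.36 and 8.83 on NAC replicates 1 to 4 and at 8.88, 8.77 and 8.42 on vehicle replicates 1, 2 and 4, so that vehicle replicate 1 was above vehicle replicate 2. Vcan, the gene of versican, was at 7.89, 8.44, 8.01 and 8.31 on NAC replicates 1 to 4 and at 7.44, 8.14 and 7.55 on vehicle replicates 1, 2 and 4, with the same 3 arrays on top. The mean of the 6 neutrophil markers was also highest on these arrays, at 5.77 and 5.47 on NAC replicates 2 and 4 and 5.58 on vehicle replicate 2. It was 5.40 and 5.42 on the other NAC arrays and 5.27 on both other vehicle arrays. By gene, only Csf3r had these 3 arrays on top. S100a8, S100a9, Camp and Retnlg held the same values on NAC replicate 4 as on NAC replicate 3. Ngp was lowest on vehicle replicate 2 (4.30). The part of leukocytes in the levels of the 3 ADAMTS genes was not tested.

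**Figure D3:**
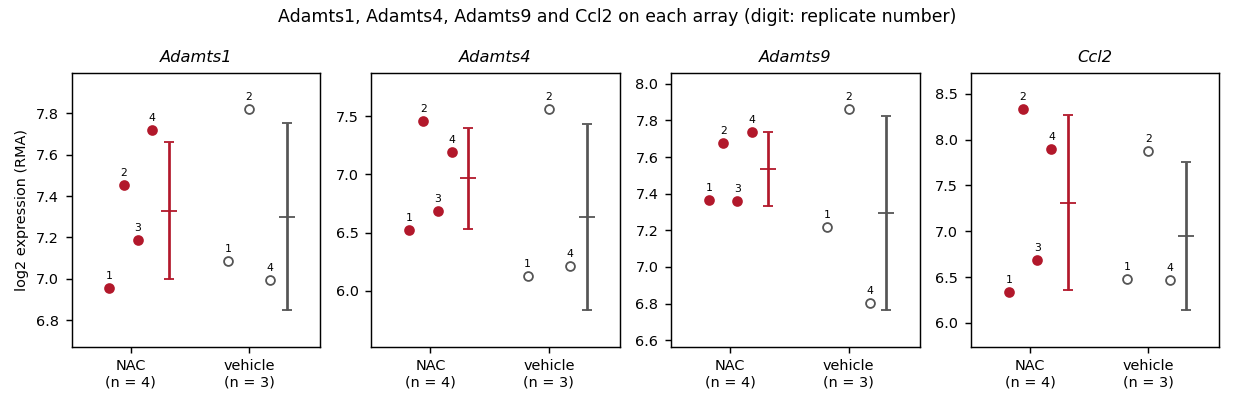
Log2 expression (y axis, RMA values, a separate scale for each gene) of Adamts1, Adamts4, Adamts9 and the chemokine gene Ccl2 on NAC (filled, red, n = 4) and vehicle (open, grey, n = 3) arrays; digits are replicate numbers and bars mean and SD. NAC replicates 2 and 4 and vehicle replicate 2 are the highest in all 4 genes.

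Adamts5, the other main aggrecanase, was at 7.14, 7.18, 7.14 and 7.18 on NAC replicates 1 to 4 and at 6.79, 7.14 and 7.14 on vehicle replicates 1, 2 and 4. Its log2 fold change of 0.14 rested on the low vehicle replicate 1, since it was 0.02 without that array. Adamts15 and Adamts20 had log2 fold changes of 0.03 and 0.01. The procollagen N-proteinases Adamts3 and Adamts14, which trim fibrillar collagens, had -0.07 and 0.09. The genes Adamts7 and Adamts12, whose products cleave cartilage oligomeric matrix protein, had 0.07 and -0.01, and Adamts13, the von Willebrand factor protease, had 0.09. The other 6 ADAMTS proteases (Adamts6, Adamts10 and Adamts16 to Adamts19) had log2 fold changes between -0.06 and 0.03.

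Of the ADAMTS-like genes, Adamtsl2 and Adamtsl4, whose products bind fibrillin microfibrils, had log2 fold changes of -0.10 and 0.00, and Adamtsl1 and Adamtsl5 had 0.00 and 0.10. Adamtsl1 was at 7.01, 6.59, 7.06 and 7.03 on NAC replicates 1 to 4 and at 6.93, 6.97 and 6.86 on vehicle replicates 1, 2 and 4, so that NAC replicate 2 was the lowest of all arrays. None of the 4 had groups apart.

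Arrays differed in how many members they led. NAC replicate 3 had the highest value in 16 members and NAC replicate 4 in 13, while each other array had it in 1 to 6. Over all genes, the shares were 16.2% and 20.8% for NAC replicates 3 and 4. The range over the 7 arrays was under 0.25 in 17 members (48.9% of all genes) and over 0.8 in 5 (2.63% of all genes), namely Adamts4, Adamts9, Mmp8, Adamts1 and Mmp7.

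**Figure D4:**
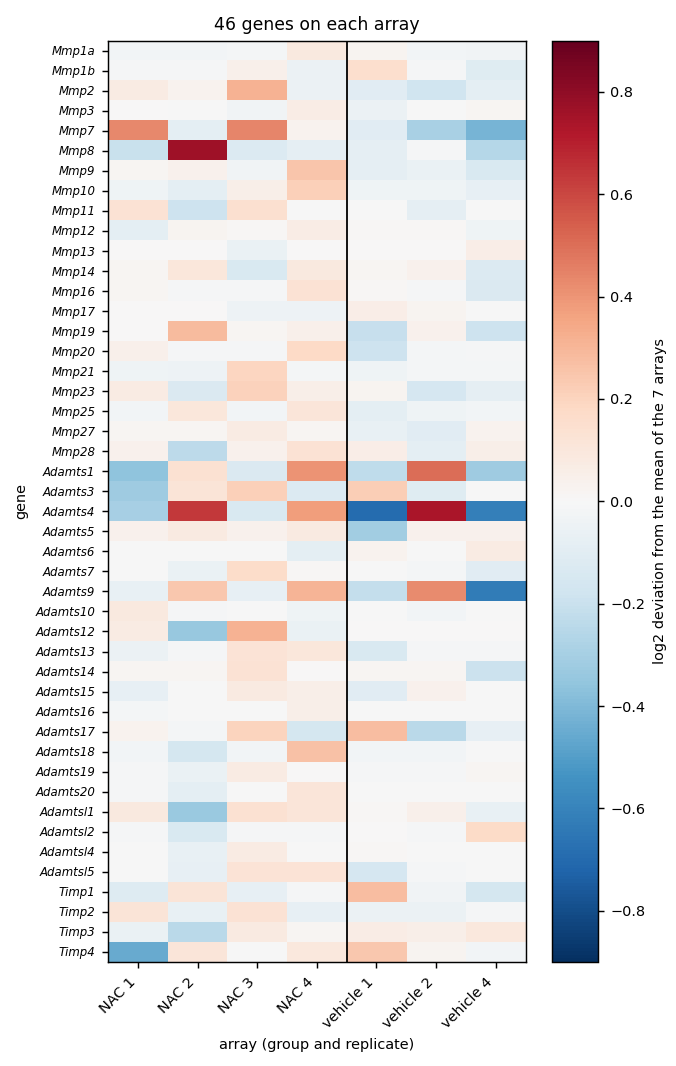
Log2 deviation of each of the 46 genes (rows) from its mean over the 7 arrays, with NAC arrays left of the line and vehicle arrays right of it; red is above and blue below the mean. Mmp7 is high on NAC replicates 1 and 3, Mmp8 on NAC replicate 2 alone, and Adamts1, Adamts4 and Adamts9 on NAC replicates 2 and 4 and vehicle replicate 2.

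Genes that act with these proteases were followed through 3 lists. Of 24 measured activators and inhibitors, among them furin, the plasminogen system and Reck, 12 were higher and 12 lower, 0 passed the test, and 1 had an unadjusted p under 0.05 (4.41% of all genes). When NAC replicate 3 was left out, 11 were higher and 0 had an unadjusted p under 0.05 (3.36% of all genes). The 1 gene was Spock1, a proteoglycan of the testican family, whose log2 fold change was -0.25 (standard error 0.11), -0.27 without NAC replicate 3 and -0.13 without vehicle replicate 1. It was at 8.99, 9.07, 9.07 and 8.92 on NAC replicates 1 to 4 and at 9.52, 9.07 and 9.20 on vehicle replicates 1, 2 and 4. Vehicle replicate 2 lay level with the highest NAC arrays. Reck, a membrane-anchored inhibitor of MMPs, had -0.08 (standard error 0.04), and Tfpi2 and Spock3 had 0.17 and -0.09. Reck, Tfpi2 and Spock3 were at -0.09, 0.11 and -0.11 without NAC replicate 3. Plau, the urokinase that makes plasmin, was named because its NAC arrays all lay above vehicle (1.29% of all genes). It was at 6.57 on NAC replicates 1 to 3, 7.48 on NAC replicate 4 and 6.48, 6.30 and 6.53 on vehicle replicates 1, 2 and 4. Its log2 fold change was 0.36 (standard error 0.24, limma unadjusted p 0.18), 0.43 without NAC replicate 3 and 0.13 without NAC replicate 4.

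Of 17 related metalloproteinases (ADAM, meprin, tolloid and neprilysin-like enzymes), 8 were higher and 9 lower (49.8% of all genes were higher). Of these, 0 were past the test and 0 at an unadjusted p under 0.05 (4.41% of all genes). The counts were 8 higher (49.4% of all genes) and again 0 at an unadjusted p under 0.05 (3.36% of all genes) without NAC replicate 3. The smallest p-values belonged to Ece1 (0.10), Adam10 (-0.11), Bmp1 (0.07) and Adam12 (0.10), given as log2 fold changes, which were 0.11, -0.11, 0.08 and 0.05 without NAC replicate 3. Of 19 measured matrix substrates other than collagens, 17 were higher and 2 lower (49.8% of all genes were higher). Their median was 0.05, with 0 past the test and 1, Fbln1, at an unadjusted p under 0.05 (4.41% of all genes). Without NAC replicate 3, 12 were higher (49.4% of all genes), the median was 0.01, and 0 had an unadjusted p under 0.05 (3.36% of all genes). Fbln1, a matrix glycoprotein, differed by 0.18 on the log2 scale (standard error 0.07) and Vcan by 0.45 (standard error 0.20). Sparc, a collagen-binding glycoprotein, differed by 0.17 (standard error 0.10) and Eln, the elastin gene, by 0.07 (standard error 0.05). These values were 0.14 for Fbln1, 0.50 for Vcan, 0.09 for Sparc and 0.05 for Eln without NAC replicate 3.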

How the data were processed

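Values of Affymetrix Mouse Gene 1.0 ST arrays were used as deposited. The log2 values are the authors' RMA output from the R package Affy, which used perfect-match probes with median polish, after quantile scaling across arrays. A vehicle array that did not pass the authors' quality control is not analysed here. Of 20696 probe sets, 18950 name 1 gene, and symbols were updated through Entrez identifiers. A gene was represented by its probe set with the highest mean, and every member had a single one. Signal over background cannot be seen from these values, and the 7 arrays limit the precision.

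NAC and vehicle were compared by limma's moderated test (version 3.58.1, R 4.3.3, two-sided, adjusted p under 0.05, no covariates). The fit was checked on simulated data with planted changes larger than that of any member. This check does not show whether changes as small as those of the members would be found. Whether replicates came from separate litters is not given in the sources used here. Array values are given for members with groups apart or an unadjusted p under 0.05 in either fit, for Mmp2, the TIMPs and the 5 members with the highest mean; other members, and genes said to be so, were chosen after their values were seen. Up to 4 genes per list are named by p. Members and lists were chosen with earlier results of these data known. Promoter sequences are from RefSeq (GRCm38.p6). Alternatives included a robust fit with a variance trend, array weights, subtracted array medians, repeated quantile normalization, exclusion of the dimmest 40% of genes, other handling of probe sets, a block by replicate number, a minimum change of 1.2-fold, and each array left out.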

Additional observations from a re-analysis of the deposited data

Results flagged for a closer look

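In 12 of 59 genes examined (46 members and 13 others), 1 NAC array stood far from the other 3 by Dixon's criterion, which chance meets in about 1 of 20 groups; identical values on the other arrays make the criterion easy to meet. Mmp8 was at 5.49 on NAC replicate 2 and at 4.52 to 4.64 on the other NAC arrays. On the same array Mmp19 was high at 6.44 (other NAC arrays 6.16 to 6.20), whereas Adamtsl1 was low at 6.59 (7.01 to 7.06) and Adamtsl2 at 6.32 (6.45 on each other NAC array). NAC replicate 3 had Mmp21 at 5.91 (5.67 to 5.70), Mmp27 at 5.74 (5.69), Adamts14 at 6.93 (6.80 to 6.82) and Mmp13 at 5.85 (5.91). NAC replicate 4 had Mmp1a at 4.06 (3.95), Adamts16 at 6.40 (6.33 to 6.34) and Adamts6 at 6.82 (6.91). Plau, outside the family, was at 7.48 on NAC replicate 4 (6.57 on each other NAC array).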

How the results depend on the processing

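Under every alternative, 0 members had an adjusted p under 0.05 with limma. Over all genes the count was 0, and 1 without NAC replicate 4 (Crip1, limma adjusted p = 0.033). The median log2 fold change of the members was 0.023 to 0.063 with single arrays left out, the highest without NAC replicate 2. Members with an unadjusted p under 0.05 numbered 1 to 3 with single arrays left out (1 without vehicle replicate 1, vehicle replicate 4 or NAC replicate 1) and 0 with a minimum change of 1.2-fold. With the replicate number as a block there were 3 (Mmp7, Mmp19 and Mmp25), 0 past the adjusted threshold and a median of 0.02; deviations of arrays with the same number correlated at 0.27, 0.23 and -0.03, and of arrays with different numbers at -0.36 to 0.14. Since 1 of the 3 pairs was near 0, and litters are not given, the arrays were not treated as pairs. Counts of members with an unadjusted p under 0.05 are set beside all genes only for all 7 arrays and without NAC replicate 3. Mmp7, Mmp2 and Mmp9 kept log2 fold changes above 0 throughout (0.39 to 0.57, 0.14 to 0.26 and 0.10 to 0.20). With limma, the unadjusted p of Mmp9 was 0.051 in the robust fit with a variance trend. It was 0.068 after repeated quantile normalization, where Adamtsl2 was under 0.05 with Mmp7 and Mmp2. With single arrays left out, Adamts1 was between -0.12 and 0.29, Timp1 between -0.14 and 0.077, Mmp14 between -0.0081 and 0.092, Mmp8 between -0.019 and 0.30 and Adamts9 between -0.0041 and 0.52, and Adamts1 was at -0.029 with array weights; the cause was not tested. Without dim genes, 24 members were left, and 17 had a log2 fold change above 0. Signal over background cannot be seen from these values, so what it limits is not known.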
